A study of Mus musculus with 6 samples.

Results

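A set of genes that mark osteoblasts (OBs) and the stromal cells of bone marrow was followed by RNA-seq in APPswe+ and control cells that the study calls OB progenitors. These genes were taken by symbol from the table of gene counts. They are Runx2, Sp7, Alpl, Spp1, Ibsp, Sparc, Pdgfra, Pdgfrb, Cxcl12 and Vcam1, 10 of the 17469 genes in the table. All 10 passed the filter on low counts, which kept 12701 genes for testing. The cells were tdTomato+ cells sorted from cultures of adherent bone marrow stromal cells (BMSCs) of untreated 6-month-old mice. The control libraries (n = 3) came from Ocn-Cre;Ai9 mice and the APPswe+ libraries (n = 3) from TgAPPswe;Ocn-Cre;Ai9 mice. Every mouse thus carried Ocn-Cre, in which the osteocalcin promoter drives Cre recombinase, and Ai9, a reporter that turns on tdTomato once Cre has acted. In TgAPPswe mice the same Cre removes a stop cassette in front of human amyloid precursor protein with the Swedish mutation. The paper describes activity of this Cre in some neurons too, and no group without Cre was sequenced. The sources used here speak of mice or cultures as replicates of these cells but do not tie each library to one of them, so p-values measure only the spread between these libraries. Against the name OB progenitors the markers were mixed. Summed over the list, 15 myeloid markers came to 15545 to 19408 FPKM per library (fragments scaled by transcript length and library size), against 1.88 to 3.43 FPKM for the OB regulators Runx2 and Sp7, 543 to 1080 FPKM for the 4 matrix genes, most of it Spp1, and 32.8 to 73.1 FPKM for the 4 stromal genes. The cells are named here by their genotype alone.

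Osteoblasts form from mesenchymal progenitors of the marrow under the transcription factor RUNX2 and then SP7 (osterix). They lay down a collagen matrix, to which they add SPARC, osteopontin (SPP1) and bone sialoprotein (IBSP), and tissue-nonspecific alkaline phosphatase (ALPL) permits its mineralization. The stromal cells around them carry the platelet-derived growth factor (PDGF) receptors PDGFRA and PDGFRB. They also make CXCL12, the chemokine that holds hematopoietic cells in the marrow through CXCR4, and VCAM1, an adhesion molecule for cells that carry the integrin subunit ITGA4.

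Of the 10 genes, 2 were higher in APPswe+ cells (Alpl and Vcam1), 4 were lower (Sp7, Spp1, Sparc and Pdgfrb) and 4 did not pass the test (Runx2, Ibsp, Pdgfra and Cxcl12). Passing means an adjusted p at or below 0.05 in the quasi-likelihood test of edgeR, adjusted by Benjamini-Hochberg over all 12701 genes. Of all genes tested, 32.5% passed as higher and 31.5% as lower, 64% in all, so 6 of 10 is near the background. None of the 10 reached a log2 fold change of 1 in either direction, whereas 8.9% of all genes passed with at least 1 and 9.2% with at most -1. At an unadjusted p under 0.05, which at least the same 64% of all genes meet, 7 of the 10 were called and 0 of these reached 1. DESeq2 also called 0 of the 10 with a log2 fold change of at least 1. The median log2 fold change was 0.00 over the 10 genes and -0.02 over all tested genes. In normalized CPM (counts scaled to library totals by the TMM method), the 6 genes that passed did not overlap between the genotypes and the other 4 did, while 69.7% of all tested genes did not overlap.

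**Figure D1:**
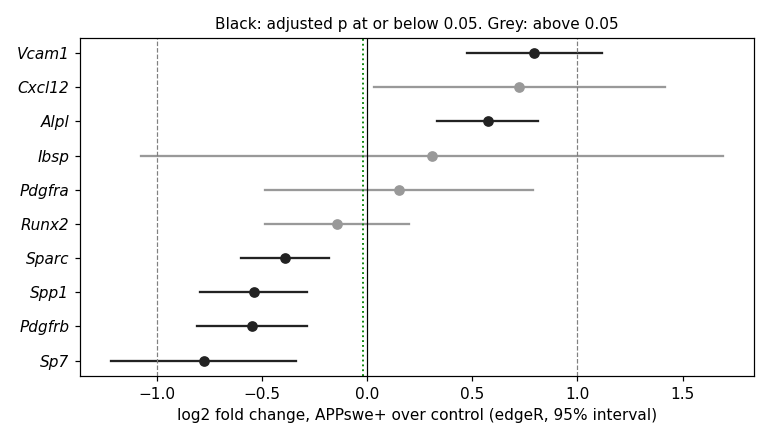
Fitted log2 fold change (APPswe+ over control, horizontal axis) of each marker gene with its 95% interval, from edgeR on 3 against 3 libraries. Black genes passed the test, dashed lines mark a log2 fold change of 1 in either direction, and the dotted line is the median of all tested genes. All points lie between the dashed lines, from -0.78 (Sp7) to 0.80 (Vcam1), with the widest interval for Ibsp.

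The libraries held 19340810 to 19801060 estimated counts in control and 21677461 to 22037840 in APPswe+ cells, so that the smallest level taken as detectable, 3 counts, was 0.136 to 0.155 CPM (counting error only). The 10 genes together took 31052 to 33201 counts per control library and 20218 to 27520 per APPswe+ library. Libraries of one genotype differed by 4.51 to 25.5 times the squared difference that counting alone gives, and libraries of different genotypes by 262 to 300 times. The single entry for App, which does not separate the human transgene from the mouse gene, lay at 275 to 281 FPKM in control and 325 to 333 FPKM in APPswe+ libraries. With TMM scaling 4122 genes passed as higher and 4007 as lower. With scaling by library size alone the numbers were 2806 (22.1% of those tested) and 5826 (45.9%), and the median log2 fold change of all genes was -0.23. The same 6 marker genes passed in the same directions under both scalings, but under the second the log2 fold change of Alpl was 0.36, that of Sparc -0.61 and that of Runx2 -0.36.

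The level of these markers was low for 7 of the 10 genes, but not for Spp1, Sparc and Cxcl12. Levels between genes are given in FPKM as mean ± SD (n = 3). FPKM carry no TMM scaling, so ratios of FPKM means differ from the fitted log2 fold changes. In control cells Spp1 stood at 944 ± 67.3 FPKM, above 99.6% of all tested genes. Sparc stood at 83.5 ± 9.35 FPKM (above 92.4%) and Cxcl12 at 31.7 ± 9.02 FPKM (above 79.2%). Pdgfrb followed at 6.94 ± 0.593 and Alpl at 3.07 ± 0.03 FPKM. The lowest levels were those of Vcam1 (2.2 ± 0.332), Runx2 (1.95 ± 0.289), Pdgfra (1.44 ± 0.389), Sp7 (1.36 ± 0.140) and Ibsp (0.973 ± 0.640 FPKM), from Vcam1 above 21.8% to Ibsp above 13.9% of tested genes. From Spp1 down to Vcam1 no neighbours in this order overlapped between libraries, and from Vcam1 down to Ibsp each neighbour overlapped the next.

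In APPswe+ cells the order was Spp1 (561 ± 98.9 FPKM), Sparc (54.8 ± 3.01), Cxcl12 (44.8 ± 18.2), Pdgfrb (4.12 ± 0.729), Alpl (3.92 ± 0.280), Vcam1 (3.29 ± 0.314), Runx2 (1.47 ± 0.175), Pdgfra (1.38 ± 0.515), Ibsp (1.04 ± 0.577) and Sp7 (0.687 ± 0.0924). Sparc and Cxcl12 overlapped here, as did Pdgfrb and Alpl, and the last 4 genes each overlapped their neighbour. Sp7 was thus the lowest of the 10 by its mean in APPswe+ cells and Ibsp in control cells.

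**Figure D2:**
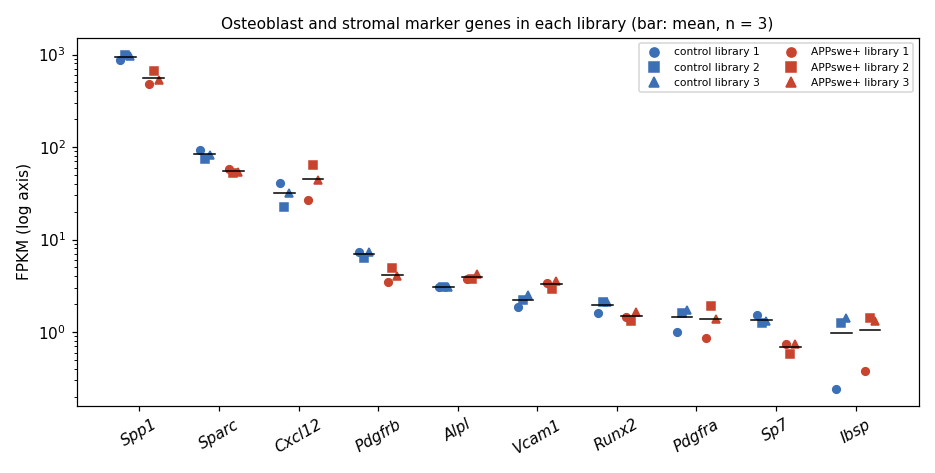
Level of each marker gene in FPKM (log axis) in the 3 control (blue) and 3 APPswe+ (red) libraries, with a bar at each mean. Spp1 lies between 481 and 1000.3 FPKM in every library, while Ibsp falls to 0.24 FPKM in control library 1 and 0.38 FPKM in APPswe+ library 1.

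Of the 4 matrix genes Spp1 and Sparc were lower, Alpl was higher and Ibsp did not pass, so the 250 bases before the start of each are shown, from RefSeq on GRCm38.p6 and read along the gene's strand. Capitals mark 2 motifs searched on both strands, the RUNX motif ACCACA and the TATA motif TATAAA, which reads TTTATA when it lies on the other strand. Where a gene has several starts the outermost is shown. The window is chr4:137796385-137796634 (minus strand) for Alpl and chr5:104434861-104435110 (plus strand) for Spp1. It is chr5:104299037-104299286 (plus strand) for Ibsp and chr11:55420081-55420330 (minus strand) for Sparc.
Alpl: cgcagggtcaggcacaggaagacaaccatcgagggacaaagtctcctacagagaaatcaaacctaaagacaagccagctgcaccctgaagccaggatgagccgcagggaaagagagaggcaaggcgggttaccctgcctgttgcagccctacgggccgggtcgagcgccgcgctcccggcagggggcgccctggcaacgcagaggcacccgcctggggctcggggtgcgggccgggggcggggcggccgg
Spp1: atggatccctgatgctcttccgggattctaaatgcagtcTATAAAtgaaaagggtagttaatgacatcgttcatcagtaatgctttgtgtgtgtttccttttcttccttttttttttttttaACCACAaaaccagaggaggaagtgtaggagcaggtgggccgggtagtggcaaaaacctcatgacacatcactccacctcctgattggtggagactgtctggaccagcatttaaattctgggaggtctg
Ibsp: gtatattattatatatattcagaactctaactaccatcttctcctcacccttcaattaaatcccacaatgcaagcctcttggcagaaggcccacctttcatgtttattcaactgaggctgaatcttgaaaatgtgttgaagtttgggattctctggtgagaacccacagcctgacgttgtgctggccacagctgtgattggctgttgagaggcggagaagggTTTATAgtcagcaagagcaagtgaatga
Sparc: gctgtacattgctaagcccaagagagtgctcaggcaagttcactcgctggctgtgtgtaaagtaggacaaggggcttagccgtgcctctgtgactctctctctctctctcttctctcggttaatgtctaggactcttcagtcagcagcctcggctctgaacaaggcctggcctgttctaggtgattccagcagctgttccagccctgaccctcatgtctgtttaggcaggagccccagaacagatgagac

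A window with 50 further bases after the start was found for 7 of the 10 genes, and motifs were counted in these 300 bases. The RUNX motif occurred in 16.8% and the TATA motif in 13.6% of all 32851 windows. It lay 128 bases before the start of Spp1, 36 bases after that of Sparc, past the stretch shown, and at 3 places in the window of Runx2 (-80, 24 and 32). The TATA motif lay at -211 in Spp1 and, reversed, at -28 in Ibsp, whose inverted TATA box is known. In Alpl neither motif was found, and G or C made up 70% of its 300 bases, against 45.3% in Spp1, 46.3% in Ibsp and 55.3% in Sparc. The AP-1 motif TGANTCA, found in 7.81% of all windows, was in none of the 7. These matches describe letters and are not binding sites.

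Of the 2 regulators, Sp7 was lower in APPswe+ cells, whereas Runx2 did not pass the test. Sp7 (Entrez identifier 170574; chromosome 15, 102356603 to 102367035), the factor that commits preosteoblasts, had 76, 76 and 77 counts in control libraries 1 to 3 and 48, 34 and 46 counts in APPswe+ libraries 1 to 3. Every APPswe+ library lay below every control library. The log2 fold change was -0.78 (SE 0.193, 95% interval -1.22 to -0.34, edgeR adjusted p = 0.00707). Runx2 (12393; chromosome 17, 44495987 to 44814797), the earlier factor of the lineage, had 179, 247 and 221 counts in control and 186, 165 and 212 counts in APPswe+ libraries. These ranges overlapped, and the log2 fold change was -0.14 (interval -0.48 to 0.20, edgeR adjusted p = 0.431). Without control library 1 it was -0.27 and without APPswe+ library 3 -0.24, without control library 2 it was -0.05 and without APPswe+ library 2 -0.04. On log2(FPKM + 1) values, limma gave Runx2 -0.25 with an adjusted p of 0.0492. The equal counts of Sp7 in control libraries 1 and 2 corresponded to 1.52 and 1.25 FPKM, so its FPKM carried a spread that its counts did not.

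Among the matrix genes, the 2 most abundant fell and the mineralization enzyme rose. Spp1 (20750; chromosome 5, 104435111 to 104441053), the secreted phosphoprotein osteopontin, had 23097, 26850 and 25245 counts in control and 14365, 19899 and 15525 counts in APPswe+ libraries. All 3 APPswe+ libraries lay below control. Its log2 fold change was -0.54 (SE 0.111, interval -0.79 to -0.29, edgeR adjusted p = 0.00259). It took 0.118% to 0.136% of all counts of a control library and 0.0652% to 0.0909% of an APPswe+ library. Osteopontin is also made by macrophages and osteoclasts.

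Sparc (20692; chromosome 11, 55394159 to 55420080), osteonectin, a glycoprotein that binds collagen and calcium, had 4720, 3822 and 4084 counts in control and 3303, 2952 and 3006 counts in APPswe+ libraries. The groups did not overlap, and the fall was the smallest of the 4 that passed. Sparc had a log2 fold change of -0.39 (SE 0.0916, interval -0.60 to -0.18, edgeR adjusted p = 0.00531). Alpl (11647; chromosome 4, 137741731 to 137796384), which cleaves the mineralization inhibitor pyrophosphate, had 146, 145 and 143 counts in control and 200, 199 and 222 counts in APPswe+ libraries. Every APPswe+ library was above control. On the log2 scale it rose by 0.57 (SE 0.105, interval 0.33 to 0.81, edgeR adjusted p = 0.00139).

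Ibsp (15891; chromosome 5, 104299287 to 104311472), a sialoprotein of mineralizing matrix, had 9, 47 and 52 counts in control and 16, 59 and 54 counts in APPswe+ libraries. In both genotypes library 1 was far below the other two, and the groups overlapped. The log2 fold change was 0.31 with an interval from -1.08 to 1.69 (edgeR adjusted p = 0.678), too wide to tell a fall from a rise. Without control library 1 it was -0.16. Ibsp and Spp1 lie in one cluster of genes for acidic mineral-binding proteins, 123638 bases apart. Of its other genes, Dmp1, an osteocyte gene, had at most a mean of 0.0267 FPKM in either genotype. Mepe and Dspp were not among the genes counted.

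The 4 stromal genes split into one rise, one fall and a pair that did not pass. Pdgfrb (18596), the PDGF receptor of pericytes and other mural cells, had 766, 663 and 748 counts in control and 404, 561 and 469 counts in APPswe+ libraries. The APPswe+ libraries were all below control. Pdgfrb had a log2 fold change of -0.55 (SE 0.114, interval -0.81 to -0.29, edgeR adjusted p = 0.00282). Pdgfra (18595; chromosome 5, 75151322 to 75198206), its relative on mesenchymal progenitors, had 128, 207 and 217 counts in control and 126, 270 and 195 counts in APPswe+ libraries. Here the groups overlapped, again with library 1 lowest in both. Its log2 fold change of 0.15 (interval -0.49 to 0.79, edgeR adjusted p = 0.658) was -0.06 when scaled by library size alone. The difference between the 2 receptors was not tested.

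Vcam1 (22329; chromosome 3, 116110020 to 116129688) had 121, 148 and 162 counts in control and 251, 214 and 254 counts in APPswe+ libraries, with no overlap. Its log2 fold change was 0.80 (SE 0.141, interval 0.47 to 1.12, edgeR adjusted p = 0.00116). Cxcl12 (20315; chromosome 6, 117168535 to 117181368) had 1810, 996 and 1366 counts in control and 1319, 3167 and 2170 counts in APPswe+ libraries. APPswe+ library 1 lay within the control range and the other two lay above it. The log2 fold change was 0.72 (SE 0.303, interval 0.03 to 1.42, edgeR adjusted p = 0.0643), which did not pass. This call changed with the libraries that were kept. Without APPswe+ library 1 the log2 fold change was 0.99 (edgeR adjusted p = 0.00683), and without control library 1 it was 0.95 (0.0349). Without both, a choice made after the values were seen, it was 1.21 (0.000530). Without APPswe+ library 2 it was 0.40 (edgeR adjusted p = 0.214), and without control library 2 it was 0.52 (0.182).

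Between the 3 APPswe+ libraries the median spread of the 10 markers was above that of all tested genes, although Alpl and Sparc lay near the middle of all genes. The coefficient of variation (CV, SD over mean of normalized CPM) had a median of 15.4% over the 10 genes in APPswe+ and 13.1% in control libraries, against 7.26% and 7.27% over all tested genes. Genes with few counts spread more for counting reasons alone, so the CV that counting gives is set beside the APPswe+ values of single genes. Ibsp varied most, with a CV of 54.0% in APPswe+ libraries (15.2% from counting) and 65.4% in control (16.7% from counting). Its highest APPswe+ library held 3.58 times its lowest. Cxcl12, with a CV of 40.2% (2.12% from counting), and Pdgfra, with 35.1% (7.12% from counting), followed, with highest over lowest of 2.33 and 2.08. These 3 genes lay above the 90th percentile of all tested genes, 27.0% in APPswe+ and 25.0% in control, in both genotypes.

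The other 7 genes had CVs of 7.0% to 19.1% in APPswe+ libraries. Alpl (7.0%, 6.95% from counting) and Sp7 (19.1%, 15.3% from counting) varied little more than counting alone gives. For Spp1 the counts were so many that counting gave 0.776% of the 15.9% seen. In control libraries the CVs of Sp7 (1.69%) and Alpl (1.05%) were below their counting CVs.

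In both genotypes 5 of the 10 genes were lowest in library 1, 5 in library 2 and 0 in library 3. Over all tested genes library 3 was also the least often lowest, for 24.3% of genes in APPswe+ and 28.0% in control libraries. Of 40 other osteoblast, matrix and stromal genes, 23 (57.5%) were lowest in APPswe+ library 1, against 37.7% of all tested genes. In control it was library 2 that was most often lowest for these 40 genes (20, or 50%, against 33.1% of all tested genes), while library 1 was lowest for 16 (40%, against 38.9%). In APPswe+ library 1 Ibsp was at 37.8%, Cxcl12 at 60.4% and Pdgfra at 65.0% of the genotype's mean, while Sp7 was at 114% and Sparc at 108%. In APPswe+ library 2 Cxcl12 reached 141%, Ibsp and Pdgfra each 135%, Spp1 118% and Pdgfrb 115%, while Sp7 fell to 78.1%. In control library 1 Ibsp was at 25.1% and Pdgfra at 69.7%, and Cxcl12 at 130%. Library 1 below 50% of the mean in both genotypes was seen for Ibsp among the 10 genes and for 0.142% (18) of all tested genes. Thy1, a stromal surface gene noticed after its values were seen, was another, with 4, 52 and 42 counts in control and 2, 21 and 18 counts in APPswe+ libraries.

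**Figure D3:**
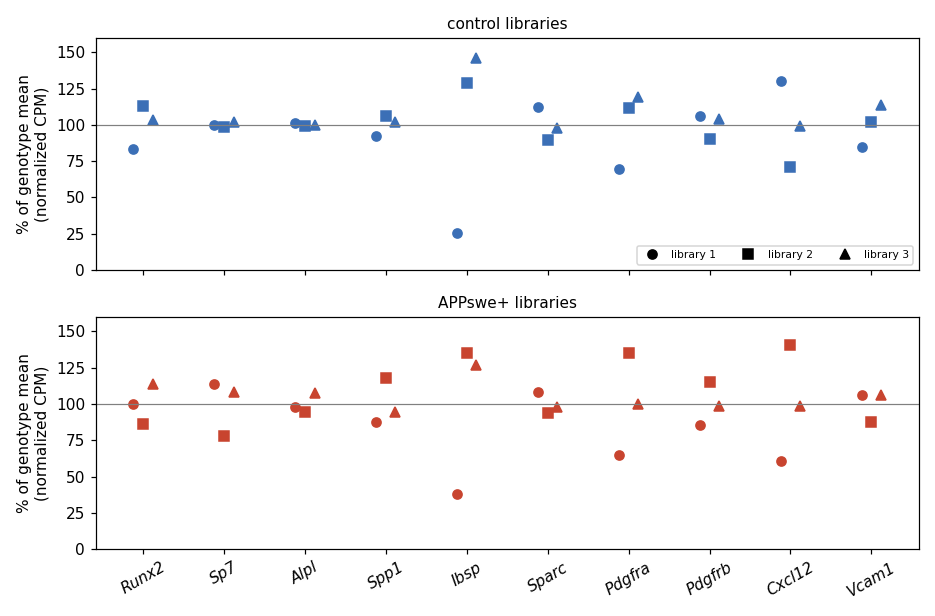
Normalized CPM of each marker gene in each library as a percentage of the mean of its genotype (vertical axis), for control (upper panel) and APPswe+ (lower panel) libraries 1 to 3 (circle, square, triangle). Library 1 is far below the mean for Ibsp in both genotypes, and Cxcl12 is high in control library 1 and APPswe+ library 2.

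Cxcl12 ranked the libraries 1, 3, 2 in control and 2, 3, 1 in APPswe+ cells, from highest to lowest. Of all tested genes 6.58% had this order in both genotypes, and Pdgfrb was the other marker gene that had it. Of the 12 other tested matrix genes 3 had it (Col1a2, Serpinh1 and Bgn). Among the 18 other marrow stromal and mural genes 4 had it, named here after their values were seen. They were Acta2 and 3 transcription factors of stromal cells, Ebf1 (153, 82 and 103 counts in control, 48, 103 and 73 in APPswe+ libraries), Ebf3 and Foxc1. Of the other lists 1 of 10 regulators, 1 of 12 ligands and receptors, 1 of 15 myeloid, 1 of 5 proliferation and 0 of the osteoclast, endothelial and adipocyte genes tested had it. The order was also seen in neutrophil and granule genes. Their summed level over 6 genes was 41.8, 10.45 and 23.9 FPKM in control libraries 1 to 3 and 17.3, 39.3 and 29.4 FPKM in APPswe+ libraries, with Ly6g at 0 to 0.06 FPKM, and 4 of the 5 tested had the order of Cxcl12 (Mpo, Elane, S100a9 and Camp). Their part in the spread of Cxcl12 was not tested.

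Bmp2 had the lowest fold change among the other regulators of osteoblasts. Of 15 genes 10 were tested, and of these 0 passed as higher, 4 as lower and 6 did not pass. As 31.5% of all tested genes passed as lower, 4 of 10 is near the background. The 0 of 10 that passed as higher stand beside 32.5% of all tested genes. The 10 tested regulators had a median log2 fold change of -0.43, against -0.02 over all tested genes. Bmp2, a growth factor that induces bone, fell from 5.41 ± 0.242 to 0.837 ± 0.105 FPKM, with a log2 fold change of -2.46. Lrp5 (-0.36), a Wnt coreceptor, and Sox9 (-1.08), a transcription factor of the chondrocyte lineage, were among the lower ones. Dlx3, Dlx5, Msx1, Msx2 and Ihh were too low to be tested, with means of at most 0.657 FPKM. When scaled by library size alone, 0 of the 10 passed as higher and 7 as lower, beside 22.1% and 45.9% of all tested genes.

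Of 17 other genes of the bone matrix and its mineralization 12 were tested. Among these 2 passed as higher, 2 as lower and 8 did not pass, with a median log2 fold change of -0.11. Of all tested genes 32.5% passed as higher and 31.5% as lower. Scaling by library size alone gave 2 higher and 5 lower, beside 22.1% and 45.9% of all tested genes, with a median of -0.32 beside -0.23. Ank, a transporter that exports pyrophosphate, fell from 45.7 ± 3.85 to 16.4 ± 1.16 FPKM, with a log2 fold change of -1.26. Serpinh1, a collagen chaperone, was lower by -0.68. Dcn (decorin), a small proteoglycan, was higher by 3.92, with 13, 22 and 13 counts in control and 51, 406 and 250 counts in APPswe+ libraries, and Omd (osteomodulin) by 1.04. The collagen genes Col1a1 (-0.17) and Col1a2 (-0.12) did not pass, at edgeR adjusted p of 0.261 and 0.367. Bglap, the osteocalcin gene whose promoter drives the Cre, was too low to be tested, at 0.857 ± 0.461 FPKM in control and 0.273 ± 0.250 FPKM in APPswe+ libraries, and its reads are shared with the near-identical Bglap2 (1.03 ± 0.980 and 1.72 ± 0.521 FPKM). Together the pair had 10, 17 and 18 counts in control and 25, 15 and 13 counts in APPswe+ libraries, which overlapped. Phex and Dmp1, genes of osteocytes, were at or below 0.0267 FPKM in their means.

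Of the 18 other marrow stromal and mural genes, all tested, 1 passed as higher, 6 as lower and 11 did not pass, with a median log2 fold change of -0.43. The share that passed as lower is near the 31.5% of all tested genes, whereas the 1 of 18 higher stands beside 32.5%. The contractile genes of mural cells and myofibroblasts were among the lower ones, with Acta2 falling from 110 ± 20.5 to 40.6 ± 4.91 FPKM (-1.31) and Tagln from 66.2 ± 14.8 to 22.3 ± 0.782 FPKM (-1.36). Eng, a coreceptor for TGF-beta, was lower by -0.56, and Nes, the intermediate filament nestin, by -1.21. Lepr, which marks the CXCL12-rich stromal cells of adult marrow, and Nt5e, a surface enzyme used to define cultured stromal cells, had means of at most 0.143 FPKM. Lepr (0.83) and Nt5e (0.19) did not pass, although the normalized CPM of Lepr did not overlap between the genotypes. Scaling by library size alone gave 1 higher and 8 lower, beside 22.1% and 45.9% of all tested genes.

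Larger changes stood among the ligands and receptors of these markers. Of all tested genes 32.5% passed as higher and 31.5% as lower. Of the 13 ligands and receptors 12 were tested, of which 2 passed as higher, 6 as lower and 4 did not pass. All 6 lower ones had a log2 fold change below -1, which 0 of the 10 markers and 9.2% of all tested genes reached, and the median of the list was -0.73. Cxcr4, the receptor of CXCL12, had 172.7, 217 and 204 FPKM in control and 20.7, 27.8 and 24.7 FPKM in APPswe+ libraries. Its log2 fold change was -2.81 (SE 0.117, edgeR adjusted p = 3.24e-07), beside 0.72 for Cxcl12. Ackr3, the other receptor of CXCL12, was too low to be tested, at 0.18 to 0.33 FPKM.

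Of the 4 PDGF ligands 3 fell. Pdgfa, which encodes a ligand of PDGFRA, fell from 26.8 ± 1.55 to 6.68 ± 0.318 FPKM (log2 fold change -1.81, edgeR adjusted p = 4.64e-07). Pdgfb, which encodes a ligand of both receptors, fell from 68.6 ± 12.8 to 19.4 ± 0.934 FPKM (-1.52, edgeR adjusted p = 1.63e-05). Pdgfc (-1.02) also passed as lower and Pdgfd (-0.43) did not pass. Of the integrin subunits that bind osteopontin, Itgb5 fell from 294 ± 4.04 to 73.6 ± 5.61 FPKM (-1.78, edgeR adjusted p = 1.45e-07) and Itgb3 from 1.46 ± 0.0346 to 0.423 ± 0.106 FPKM (-1.58), while Itgav (-0.25) did not pass. Of the VCAM1 receptor, Itga4 (0.07) and Itgb7 (0.38) did not pass and Itgb1 (0.56) was higher, as was Cd44 (0.70), another osteopontin receptor. Counts of Pdgfb, Itga4 and Itgb1 were fractional in every library, as happens when reads are shared between genes.

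**Figure D4:**
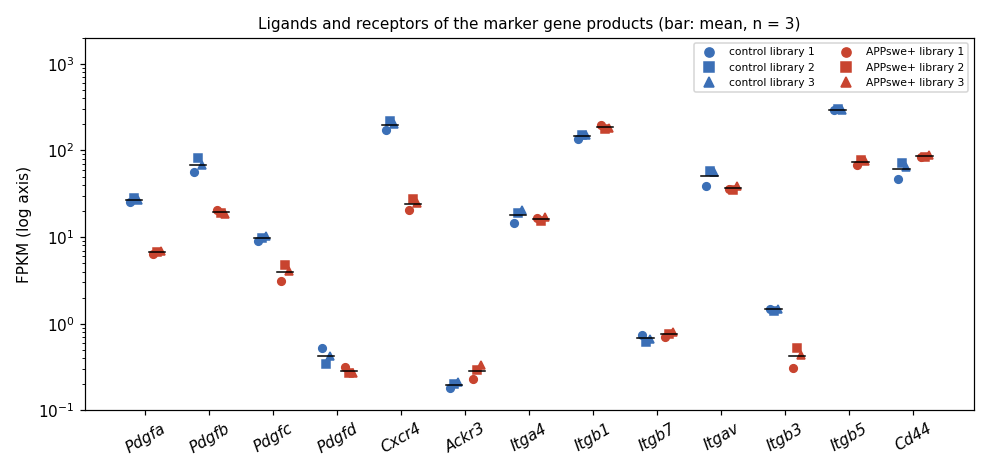
Level in FPKM (log axis) of the PDGF ligands, the CXCL12 receptors and the integrin subunits and CD44 that bind VCAM1 or osteopontin, in 3 control (blue) and 3 APPswe+ (red) libraries with a bar at each mean. Cxcr4, Pdgfa, Pdgfb and Itgb5 lie far lower in all APPswe+ libraries, and Itgb1 and Cd44 lie higher.

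Markers of other cells were measured beside these genes. For the counts that passed here and in the next paragraph, the shares of all tested genes were 32.5% higher and 31.5% lower. In bulk RNA, fewer cells of a type and less RNA per cell cannot be told apart. The 15 myeloid markers summed to 18571 to 19408 FPKM in control and 15545 to 19341 FPKM in APPswe+ libraries, led by Lyz2 and Fcer1g. Of the 15, 6 passed as higher, 6 as lower and 3 did not pass. With a log2 fold change of at least 1 there were 4, and with at most -1 there were 5. Of all tested genes 8.9% and 9.2% did so. The lowest mean among the 15 was 20.2 FPKM (Cx3cr1 in APPswe+ cells). Runx2 and Sp7 together summed to 3.14 to 3.43 FPKM in control and 1.88 to 2.39 FPKM in APPswe+ libraries. The 9 osteoclast markers, cells that also make osteopontin, summed to 59.9 to 83.1 FPKM in control and 122 to 242 FPKM in APPswe+ libraries, with Calcr at or near 0 in every library. Most of the APPswe+ sum was Mmp9, which rose from 1.88 ± 0.756 to 121 ± 50.03 FPKM. Without Mmp9 the other 8 summed to 57.2 to 81.8 FPKM in control and 52.4 to 72.4 FPKM in APPswe+ libraries, where Atp6v0d2 fell from 34.9 ± 10.5 to 5.37 ± 0.408 FPKM and Acp5 rose from 4.68 ± 1.09 to 34.7 ± 11.9 FPKM. Ocstamp, the other osteoclast marker that rose, had means of 0.01 and 0.93 FPKM. Of the 7 tested, 3 passed as higher, 3 as lower and 1 did not pass. The 6 adipocyte markers summed to 617 to 749 FPKM and 373 to 519 FPKM, led by Lpl and Cebpa, with Plin1 below 0.1 FPKM in its means. Lpl stood at 477 ± 50.9 FPKM in control and 395 ± 67.4 FPKM in APPswe+ libraries and did not pass. Adipoq did not pass either, at 1.05 ± 0.348 and 1.07 ± 0.465 FPKM. Of the adipocyte markers tested, 0 passed as higher, 3 as lower and 2 did not pass.

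The 8 endothelial markers summed to 5.78 to 7.52 FPKM in control and 5.7 to 6.5 FPKM in APPswe+ libraries, led by Pecam1 in both genotypes, with Tek and Cldn5 below 0.1 FPKM in their means, and 1 passed as higher, 2 as lower and 2 did not pass. Of 6 listed lymphoid markers 5 were analysed, which summed to at most 0.36 FPKM and none was tested. Of the 5 neutrophil markers tested, led by S100a9 and S100a8, 1 passed as higher and 0 as lower. All 5 proliferation genes, led by Birc5 and Top2a, fell, with sums of 109 to 114 FPKM in control and 35.95 to 46.5 FPKM in APPswe+ libraries. The part of any of these in the differences of the 10 marker genes was not tested.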

How the data were processed

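RNA of sorted tdTomato+ cells was sequenced on a DNBSEQ platform. The paper took samples above a set RNA integrity number as qualified, and the part of RNA quality in the spread was not tested. The authors' processing notes name HISAT2 2.0.4, Bowtie2 2.2.5, RSEM 1.2.12, DESeq2 1.4.5 and mm10. Whether counting used strand is not given in the sources used here. The authors deposited estimated counts, fractional for 13.3% to 14.4% of genes per library but for 0 of the 10 markers, and FPKM values. A further table with the authors' log2 ratios and p-values was not used.

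Estimated counts were rounded and tested with the quasi-likelihood test of edgeR 4.0.16 in R 4.3.3 (TMM scaling, filterByExpr), with a biological coefficient of variation of 9.85%. Groups came from the genotype labels. Alternatives were DESeq2 1.42.0, RLE or library size scaling, other count filters, a replicate block, limma 3.58.1 on log2(FPKM + 1) or log2(FPKM + 0.1), a fold change threshold and leaving out libraries. Fold changes on log2(FPKM + 1) understate those of low genes. Tables were prepared in Python 3.11.15 with pandas 2.3.3 and numpy 2.4.6, and drawn with matplotlib 3.10.9. The test was tested on simulated data, with a criterion for recovered genes that was relaxed after a first version was narrowly missed.

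The markers and lists were chosen with earlier results of these data known. Of other lists, the text names up to 4 tested genes with the smallest adjusted p, up to 2 defining genes near 0 and, for other cell types, the 2 most abundant. A gene under this rule is not reported here. Outside this rule, the other ligands and receptors, Col1a1, Col1a2, Bglap, untested genes, Thy1, Ebf1, Ebf3, Foxc1, 3 matrix genes ordered as Cxcl12, 4 osteoclast genes, Bglap2 and the neutrophil genes were named after their values were seen. Coordinates, and promoters of 7 genes, are from RefSeq on GRCm38.p6, the mm10 assembly, and all 10 matched by gene identifier.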

Additional observations from a re-analysis of the deposited data

How the results depend on the processing

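Alpl and Vcam1 passed as higher and Sp7, Spp1, Sparc and Pdgfrb as lower under every alternative run without a fold change threshold, which left out each library in turn among others. Requiring a log2 fold change of at least 1 left 0 higher and 0 lower. Leaving out each library in turn gave 2 to 3 genes higher and 4 lower. Of 159 log2 fold changes under the alternatives, 148 kept their direction and their side of the threshold, 7 turned and 4 newly passed. Pdgfra turned to -0.060 when scaled by library size, to -0.048 in limma on log2(FPKM + 1) with and without a filter, and to -0.088 on log2(FPKM + 0.1), and ranged from -0.12 to 0.39 when libraries were left out. Ibsp ranged from -0.16 to 0.70 there, and could not be tested with at least 10 counts in every library, since control library 1 held 9. Cxcl12 passed in 3 alternatives, all without a library numbered 1, and Runx2 in 1, limma on log2(FPKM + 1). Over all alternatives the adjusted p ranged from 0.000530 to 0.332 for Cxcl12 and from 0.0492 to 0.832 for Runx2, and was at most 0.0283 for the 6 genes that passed. The causes were not tested.

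The replicate block gave 2 genes higher and 4 lower, and 7945 of 12701 genes passed, against 8129 without it. The deviations of same-numbered libraries from their genotype means correlated with r = 0.01, 0.01 and 0.14 for numbers 1 to 3 (across genes). For libraries of unlike number r lay between -0.05 and 0.03. With the block the SE fell for Ibsp (from 0.605 to 0.247), Pdgfra (from 0.278 to 0.136), Spp1, Sparc and Vcam1. It rose for Cxcl12 (from 0.303 to 0.368), Pdgfrb, Runx2, Sp7 and Alpl. These values cannot tell whether the shared numbers pair the libraries. The smallest count of a marker gene in any library was 9, for Ibsp in control library 1.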
